A study of Sus scrofa with 30 samples.

Results

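The HOX genes encode homeodomain transcription factors that lie side by side in 4 chromosomal clusters, HOXA, HOXB, HOXC and HOXD. All protein-coding genes of the pig annotation whose symbol is one of these 4 names followed by a number were taken, which gave 36 of 19484 coding genes on chromosomes 1 to 18 and X. There were 11 in HOXA, 8 in HOXB, 9 in HOXC and 8 in HOXD, and paralogue numbers ran from 1 to 13. None carried the symbol HOXB4, HOXB9 or HOXD4, and any HOX gene missing from the annotation was not counted. H3K4me3 and H3K27me3, the trimethylated forms of lysine 4 and lysine 27 of histone H3, had been profiled by ULI-NChIP-seq, native chromatin immunoprecipitation and sequencing from very few cells, in pig oocytes and in embryos fertilised in vitro. The H3K4me3 groups were germinal vesicle (GV) oocytes, metaphase II (MII) oocytes, 1-cell, 2-cell, 4-cell and 8-cell embryos, morulae, blastocysts, and siKDM5BC 4-cell embryos, whose zygotes had received siRNA that targets KDM5B and KDM5C, both demethylases of H3K4. The H3K27me3 groups were MII oocytes, 2-cell, 4-cell and 8-cell embryos, morulae and blastocysts. Each of the 15 groups had 2 libraries. No pig breed, donor age or number of pooled oocytes or embryos is given in the labels, and no control-siRNA library is labelled, so the siKDM5BC libraries were set against untreated 4-cell embryos.

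In vertebrate embryos the order of HOX genes along a cluster follows the order in which they are used along the body axis. Low paralogue numbers pattern the hindbrain and neck, middle numbers the trunk, and high numbers the tail, the distal limb and the genital tract. Before they are used, the clusters are classic targets of the Polycomb complexes, which place H3K27me3, while trithorax-type methyltransferases place H3K4me3 at their promoters. Regions that carry both marks are known as bivalent. KDM5 enzymes remove H3K4 methylation.

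On the susScr11 build, HOXA lay on chromosome 18 from 45373340 to 45480306, HOXB on chromosome 12 from 24784953 to 24950661, HOXC on chromosome 5 from 19151096 to 19268267, and HOXD on chromosome 15 from 81893997 to 81990026. Coverage was measured over each cluster with 5 kb added on both sides, 117 kb for HOXA, 176 kb for HOXB, 127 kb for HOXC and 106 kb for HOXD. It was also measured over a window for each gene, the union of the 5 kb on either side of both gene ends. The measure is the percent of the cluster or window that lies under the authors' peaks, and differences are in percentage points. The genes are close together, so 31 of the 36 windows shared bases with that of another HOX gene, with a median shared part of 59.9%. HOX genes are therefore not independent of one another in this measure.

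Over all 30 libraries, H3K4me3 lists held 37481 to 119878 peaks covering 31.6 to 179 Mb, and H3K27me3 lists 2358 to 80700 peaks covering 1.28 to 109 Mb. The lists hold no read totals, so the depth is unknown. The labels do not say whether the 2 libraries of a group came from separate collections, so a p-value reflects only how far these libraries spread, which may be technical. Of 9 oocyte genes, 9 and 7 had H3K4me3 within 1 kb of an end in the GV libraries. Of 8 cumulus and granulosa genes, 6 and 3 did in GV and 2 and 3 in MII libraries. The aromatase gene CYP19A1 was at 0 in all 18 H3K4me3 libraries, so it does not tell these cells apart here. Of 10 trophectoderm genes 9 and 9, and of 7 hypoblast genes 6 and 6, had H3K4me3 within 1 kb of an end in blastocysts. In GV libraries these counts were 8 and 8, and 7 and 7. Of the 9 oocyte genes, 5 and 5 had it in blastocysts. Over all coding genes, 69.6% had it in both GV and 73.6% in both blastocyst libraries. These counts therefore do not tell stages or cell types apart. Windows of the inner cell mass list were covered to 31.7% and 29.8% in blastocyst and 19.2% and 14.3% in GV libraries. Of 5 sperm genes, 2 and 2 had the mark in 1-cell and 2 and 1 in MII libraries. The part of other cells in the HOX values was not tested.

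H3K4me3 covered a large part of the HOX genes in every group, including the oocytes. Averaged over the 36 windows, coverage was 53.5% and 40.6% in the GV libraries, 23.4% and 40.9% in MII, 35.4% and 55.7% in 1-cell and 55.1% and 50.9% in 2-cell libraries. It was 46.3% and 26.8% in 4-cell, 22.0% and 25.1% in 8-cell, 36.5% and 41.2% in morula and 34.5% and 33.6% in blastocyst libraries. The MII, 1-cell and 4-cell replicates differed by over 15 points, and the stages before the 8-cell stage overlapped one another in most pairs. No HOX gene was at 0 in any H3K4me3 library. Against the mean window of all coding genes, HOX coverage was 2.94 to 4.07 times as high in the 10 libraries of normal stages up to the 4-cell stage and 1.87 to 2.39 times as high in the 6 libraries from the 8-cell stage on. This split between stages was chosen after the values were seen and carries no test. It did not hold when only stronger peaks were counted, as given below. The median percentile of HOX genes among all genes was 94.4 to 98.6 in the first set and 85.3 to 93.1 in the second.

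**Figure D1:**
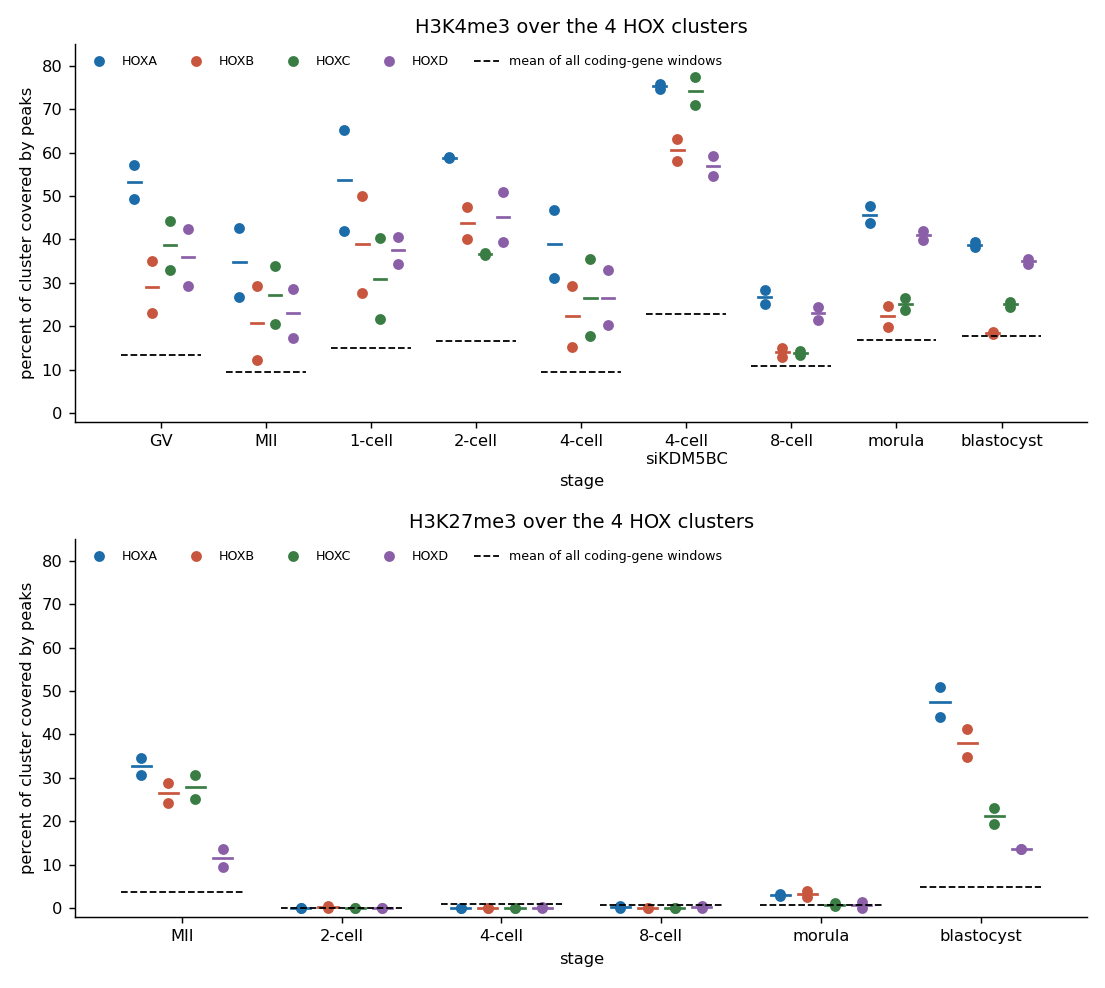
Percent of each HOX cluster covered by H3K4me3 (top) and H3K27me3 (bottom) peaks, by stage. Points are the 2 libraries, short lines their mean, and dashed lines the mean over all coding-gene windows. HOXA has the highest H3K4me3 mean of the 4 clusters at all 8 normal stages, and H3K27me3 is at or below 0.598% of every cluster in 2-cell, 4-cell and 8-cell libraries.

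The 4 clusters held different amounts of the mark. HOXA was covered to 57.1% and 49.2% in GV libraries, 58.8% and 58.9% in 2-cell libraries, 25.1% and 28.4% in 8-cell libraries and 38.2% and 39.4% in blastocyst libraries. HOXB, whose HOXB13 lies far from its nearest HOX neighbour, was covered to 35% and 23.0%, 47.5% and 40.0%, 13% and 15%, and 18.6% and 18.2% at the same stages. HOXC had 25.6% and 24.5% in blastocysts and HOXD 35.6% and 34.3%. In blastocysts the order was therefore HOXA, HOXD, HOXC and HOXB, with no overlap between the libraries of different clusters. At GV and at 1-cell the ranges of HOXB, HOXC and HOXD overlapped.

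At the level of genes, HOXA7, a trunk gene, was among the most covered throughout, with 70.7% and 81.4% in GV, 86.5% and 85.1% in 1-cell, 45.0% and 52.7% in 8-cell and 63.1% and 57.2% in blastocyst libraries. HOXA9, best known for its part in blood progenitors, went from 80.4% and 83.2% in GV to 42.6% and 44.3% in 8-cell libraries. HOXA4, which lies inside the annotated span of HOXA3 and shares no window with another HOX gene, was far lower than its neighbours in GV (16.0% and 13.2%), 4-cell (15.5% and 8.28%) and blastocyst libraries (13.6% and 18.8%). It reached 31.8% and 66.9% in 1-cell and 52.2% and 41.8% in 2-cell libraries. HOXD1, the member at the end of its cluster, was low up to the 8-cell stage, with 20.4% and 13.7% in GV and 14.7% and 14.5% in 8-cell libraries. With a peak within 1 kb of either end in both libraries, 34 of 36 HOX genes were marked in GV oocytes (69.6% of all coding genes), 30 in MII (56.6%), 31 in 1-cell (60.9%), 35 in 2-cell (70.8%), 32 in 4-cell (66.0%), 36 in siKDM5BC 4-cell (77.7%), 31 in 8-cell (68.1%), 35 in morula (72.7%) and 33 in blastocyst groups (73.6%).

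**Figure D2:**
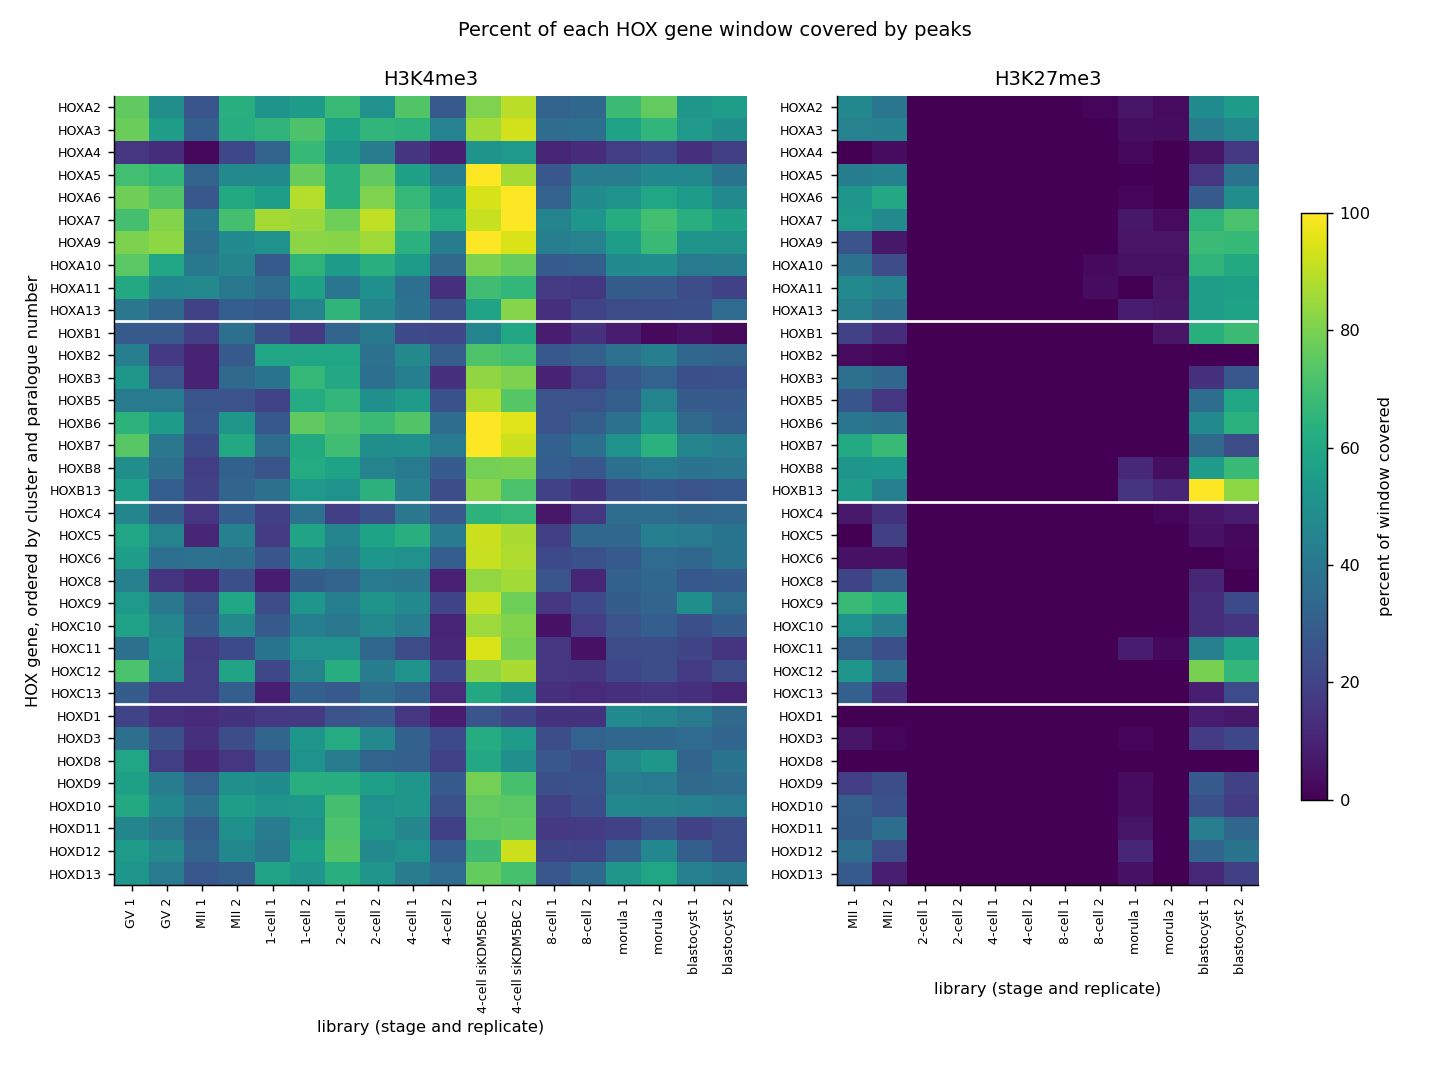
Percent of each of 35 HOX gene windows covered by peaks in each of the 18 H3K4me3 and 12 H3K27me3 libraries. Genes are ordered by cluster and paralogue number, and white lines part the clusters. Both siKDM5BC columns are the brightest for H3K4me3, and H3K27me3 is confined to MII and blastocyst columns apart from values up to 15.4% in morulae and 3.48% in 8-cell embryos.

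Coverage and peak strength did not move together. The authors' −log10 q of the peaks over the clusters had medians of 2.24 and 2.45 in GV libraries and 1.35 to 1.86 in the 6 MII, 1-cell and 2-cell libraries. The medians were 3.83 and 2.94 in 4-cell, 10.8 and 9.29 in morula and 8.21 and 9.62 in blastocyst libraries. With only peaks of −log10 q of 3 or more, the mean HOX window was covered to 8.55% and 6.95% in GV, 0.0% and 0.0533% in MII, and 0.0544% and 0.192% in 2-cell libraries. The same measure gave 40.1% and 15.8% in 4-cell, 35.9% and 38.5% in morula and 32.4% and 31.6% in blastocyst libraries. The oocyte and 2-cell coverage of HOX genes thus consisted mostly of peaks below that minimum, and that of morulae and blastocysts mostly of peaks above it. Relative to all genes, HOX coverage at that minimum was 0.984 and 2.98 in GV and 0.0 and 0.338 in MII libraries. It was 0.0 and 3.1 in 1-cell, 0.387 and 0.764 in 2-cell and 4.57 and 4.09 in 4-cell libraries. From the 8-cell stage on it was 1.79 to 2.47. The mean of all genes was itself at most 0.331% in MII, 1-cell and 2-cell libraries. The median peak over the clusters was 736 and 1194 bp wide in MII and 1504 and 1392 bp wide in blastocyst libraries.

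From stage to stage, the step that moved most HOX genes one way was that from the 8-cell embryo to the morula. In 35 of 36 genes both morula libraries lay above both 8-cell libraries (59.4% of all coding genes). HOXA2, which patterns the hindbrain and the arches of the face, went from 31.9% and 33.9% to 68.4% and 75.8%. HOXD1 went from 14.7% and 14.5% to 48.3% and 45.8%. The exception was HOXB1, a hindbrain gene, where both lay lower (8.8%) and which went from 8.18% and 14.4% to 8.0% and 2.47%. In the preceding step, from the 4-cell to the 8-cell embryo, both 8-cell libraries lay below both 4-cell libraries in 19 HOX genes (12.1% of all genes) and above in none (27.6%). From morula to blastocyst, 21 lay lower (26.4%) and 2 higher, HOXA13 and HOXC9 (25.9%). From GV to MII, 14 lay lower (34.4%) and 0 higher (4.18%), and from MII to 1-cell 13 lay higher (38.6%) and 0 lower (5.76%). From 1-cell to 2-cell, 5 lay higher (15.1%) and HOXB2 alone lower (10.9%). These are counts of groups that do not overlap, with no test for any step.

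Across the 8 normal stages, limma's moderated F test with Benjamini-Hochberg adjustment over all 17538 tested genes called 12 of 36 HOX genes changed (59.7% of tested genes). HOXD1 had the lowest adjusted p (limma F test, 0.00014), followed by HOXB1 (0.00371) and HOXA4 (0.00416). The count depended on single libraries. It was 25 without 1-cell replicate 1, 6 or 7 without either 8-cell library, and 6 without either library of the morula or the blastocyst. It was 34 with peaks of −log10 q of 3 or more and 19 after subtraction of each library's mean.

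Between the MII oocyte and the blastocyst, the first and last stages at which both marks were profiled, few HOX genes changed in H3K4me3. HOXD1 was covered to 12.1% and 14.5% in MII and 40.7% and 34.7% in blastocyst libraries. It rose by 24.4 points (SE 4.91, limma with Benjamini-Hochberg adjustment, adjusted p = 0.000956), the 1 HOX gene of 36 called higher against 38.7% of tested genes. HOXB1 was covered to 18.4% and 37.0% in MII and 4.97% and 2.59% in blastocyst libraries. It fell by 23.9 points (SE 6.44, limma adjusted p = 0.00729), the 1 HOX gene called lower against 4.92% of tested genes. For both genes the MII and blastocyst libraries did not overlap. Over all 36 genes, both blastocyst libraries lay above both MII libraries in 10 (58.5% of all coding genes) and below them in 5 (13.4%). The median HOX difference was 3.0 points, against 7.53 points over all tested genes. With each library's mean subtracted, 1 HOX gene was called higher and 6 lower, on the log2 scale 2 and 1, and with −log10 q of 3 or more 33 and 0. At that minimum the mean window of all coding genes also rose, from 0.0183% and 0.158% in MII to 16.1% and 16.5% in blastocyst libraries. No HOX gene was called lower without MII replicate 2 or without blastocyst replicate 2, and 2 were without MII replicate 1.

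From the 2-cell to the 4-cell embryo, the interval that holds the major activation of the pig embryonic genome, H3K4me3 over HOX genes was lower in most members but rarely past the test. HOXA4 went from 52.2% and 41.8% to 15.5% and 8.28%, and HOXD3, which patterns the neck vertebrae, from 61.5% and 47.2% to 31.0% and 22.4%. HOXA4 fell by 35.1 points (SE 8.91, limma adjusted p = 0.0191) and HOXD3 by 27.7 points (SE 8.21, limma adjusted p = 0.0363). These were the 2 HOX genes called lower (13.4% of tested genes), 11 were lower at an unadjusted p under 0.05, and 0 were called higher (0.177%). Both 4-cell libraries lay below both 2-cell libraries in 17 HOX genes (47.2% of all genes) and above them in HOXC4 alone (4.9%). The count of 17 was near the share over all genes, and the 2 calls were below it, so neither sets HOX genes apart. The median HOX difference was −16.8 points, against −5.52 over all tested genes. The direction turned with peak strength. With peaks of −log10 q of 3 or more, 18 HOX genes were called higher and 0 lower, and HOXA4 and HOXD3 were among those whose sign turned. The turn was not particular to HOX genes. At that minimum the mean window of all coding genes went from 0.141% and 0.251% in 2-cell to 8.78% and 3.87% in 4-cell libraries. With each library's mean subtracted, 1 was called higher and 1 lower. No HOX gene was called lower without 2-cell replicate 1 or without 4-cell replicate 2, 1 was without 4-cell replicate 1, and 4 were without 2-cell replicate 2. HOXA4 and HOXD3 both missed the threshold without 2-cell replicate 1, without either 4-cell library, with 2.5 kb windows and with a fold of 3.5 or more, and HOXD3 also on the log2 scale, after subtraction of library means and in a fit of the 2 groups alone.

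The siKDM5BC embryos had the highest H3K4me3 coverage of HOX genes of all groups. Of the genes targeted, KDM5B had 23.4% and 15.6% in untreated and 32.6% and 36.0% in siKDM5BC embryos, and KDM5C 6.07% and 9.78%, then 13.4% and 9.18%. Peaks do not measure the targeted messenger RNA, so the knockdown itself could not be checked. Averaged over the 36 windows it was 77.4% and 76.1%, against 46.3% and 26.8% in untreated 4-cell embryos. The HOXC cluster was covered to 77.4% and 70.9%, against 35.5% and 17.7%, and HOXA to 74.7% and 75.8%, against 46.7% and 31.1%. HOXB had 63.2% and 58.1% against 29.3% and 15.2%, and HOXD 59.1% and 54.6% against 32.9% and 20.3%. In all 36 HOX genes both siKDM5BC libraries lay above both untreated libraries (70.8% of all coding genes) and in 0 below (0.6%).

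**Figure D3:**
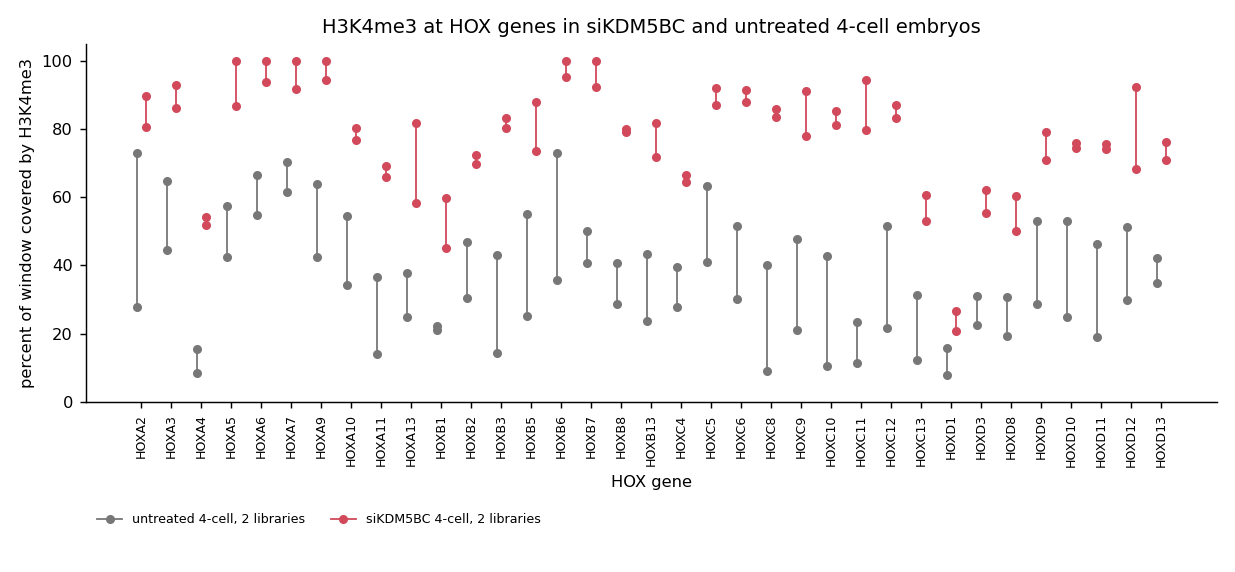
Percent of each of 35 HOX gene windows covered by H3K4me3 peaks in the 2 untreated (grey) and 2 siKDM5BC (red) 4-cell libraries, with a line joining the libraries of a group. No pair of lines overlaps, HOXC11 is farthest apart (23.3% and 11.3% against 94.3% and 79.8%), and HOXD1 stays the lowest siKDM5BC gene (26.5% and 20.8%).

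The limma test with Benjamini-Hochberg adjustment called 32 of 36 HOX genes higher in siKDM5BC embryos (41.2% of tested genes) and 0 lower (0.0684%), and at an unadjusted p under 0.05 it was 35 higher. The called genes were 8 of 11 in HOXA, 8 of 8 in HOXB, 9 of 9 in HOXC and 7 of 8 in HOXD. HOXA2, HOXA7 and HOXD1 were among those that did not pass, with differences of 34.6, 29.9 and 11.9 points. HOXC11, a gene of the posterior trunk and hindlimb, rose by 69.8 points (SE 8.25, limma adjusted p = 4.71e-05). In the other clusters the called gene with the largest difference was HOXB3, a hindbrain and pharyngeal arch gene, which rose by 53.1 points (SE 12.3, limma adjusted p = 0.00356), from 43.2% and 14.3% to 83.3% and 80.3%. HOXA9 rose by 44 points (SE 11.8, limma adjusted p = 0.00801), from 63.9% and 42.5% to 100% and 94.4%. HOXD11, which shapes the forearm, rose by 42.3 points (SE 9.63, limma adjusted p = 0.00314), from 46.3% and 19% to 74.3% and 75.6%. The median HOX difference was 39.3 points, against 10 points over all tested genes. Genes that are nearly covered already had little room to rise on this scale.

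Peaks over the clusters were fewer and wider in siKDM5BC embryos. Whether separate peaks had joined was not tested. The clusters held 97 and 91 peaks with median widths of 1480 and 1026 bp in untreated embryos, and 70 and 75 peaks with median widths of 4121 and 3537 bp in siKDM5BC embryos. In siKDM5BC replicate 1 a single peak of 30.3 kb met HOXB5, HOXB6, HOXB7 and HOXB8, and in replicate 2 one of 32.0 kb met HOXA3, HOXA5, HOXA6, HOXA7 and HOXA9. The widest peaks over the clusters in untreated libraries were 9.39 kb and 3.67 kb. Peaks of −log10 q of 3 or more made up 77.1% and 68.0% of those over the clusters in siKDM5BC libraries and 71.1% and 46.2% in untreated ones. Over the whole genome, siKDM5BC libraries were also the widest in covered length, 179 and 164 Mb against 56.4 and 31.6 Mb. HOX coverage relative to the mean window of all genes was 3.25 and 3.47, against 4.07 and 3.63 in untreated libraries. The siKDM5BC libraries were registered apart from the others, with later accession numbers, and anything that differed with that cannot be told apart from the treatment. Untreated replicate 2, with fewer peaks than any other H3K4me3 library, bore on the count: 8 HOX genes were called without it, 17 without siKDM5BC replicate 1, and 23 after each library's mean was subtracted.

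The comparisons of siKDM5BC with 4-cell embryos and of 4-cell with 2-cell embryos share the untreated 4-cell libraries. Side by side, HOXC11 had 51.3% and 33.6% in 2-cell, 23.3% and 11.3% in 4-cell and 94.3% and 79.8% in siKDM5BC libraries. HOXC4 had 18.7% and 24.9%, 39.5% and 27.9%, and 64.6% and 66.5% in the same order. Both siKDM5BC libraries lay above both 2-cell libraries in 30 of 36 HOX genes (42.8% of all genes) and below in 0 (6.94%). HOXC11 and HOXC4 thus lay above their 2-cell values in siKDM5BC embryos, whichever way they differed between the 2-cell and 4-cell stage.

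H3K27me3 over the HOX genes was present at the start and the end of the series and nearly absent between. In MII oocytes the mean HOX window was covered to 31.6% and 28.2%, which was 7.79 and 8.13 times the mean of all coding genes. It was 0.0% in all 4 libraries of the 2-cell and 4-cell stages, 0.0% and 0.259% at the 8-cell stage, 2.95% and 1.54% in morulae, and 33.2% and 37.1% in blastocysts, 7.55 and 6.71 times the mean of all genes. The 2-cell lists covered only 2.01 and 1.28 Mb in all. The 4-cell lists covered 17.6 and 27.9 Mb and 0.736% and 1.18% of the mean coding-gene window, with 0 of 36 HOX gene windows touched in either library. With a peak within 1 kb of an end in both libraries, 24 HOX genes were marked in MII (11.4% of all genes), 0 in 2-cell (0.103%), 0 in 4-cell (2.46%), 0 in 8-cell (0.796%), 4 in morula (2.77%) and 21 in blastocyst groups (16.9%). Across the 6 stages limma's F test with Benjamini-Hochberg adjustment called 32 of the 33 tested HOX genes changed (74.3% of tested genes), all but HOXC5. Only genes with a mean of 1% or more over the 12 libraries were tested. The mean HOX window was at most 2.95% from the 2-cell stage to the morula, so most HOX genes passed that filter through MII or blastocyst coverage. The filter therefore partly fixed this count and those from MII to 2-cell and from morula to blastocyst below. Without read depths, a low level of the mark at the middle stages cannot be told apart from none.

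In MII oocytes, HOXA was covered to 34.6% and 30.7%, HOXB to 28.9% and 24.2%, HOXC to 30.6% and 25.2%, and HOXD to 13.5% and 9.47%. The HOXD libraries lay below those of every other cluster. The most covered genes were HOXC9, which specifies motor neurons of the thorax, with 67.8% and 63.1%, and HOXB7 with 61.3% and 67.8%. HOXD1 and HOXD8 were at 0.0% in both MII libraries, and HOXB2 had 2.75% and 1.66%.

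In the 2-cell embryo each HOX gene window was at 0.0% in both libraries. Inside HOXB3, beyond its end windows, 1 peak of 763 bp lay in replicate 2. Both 2-cell libraries lay below both MII libraries in 32 of 36 HOX genes (17.9% of all genes) and above in 0 (0.123%), and limma with Benjamini-Hochberg adjustment called 29 lower (32.8% of 7024 tested genes) and 0 higher (0.0%). HOXB2, HOXC6 and HOXD8 were not tested for this mark, since their mean coverage over the 12 libraries was under 1%. HOXC9 fell by 65.4 points (SE 3.12, limma adjusted p = 1.66e-06), HOXB7 by 64.5 points (SE 3.73, limma adjusted p = 3.79e-06), and HOXA6, a trunk gene, by 56.5 points (SE 5.79, limma adjusted p = 9.23e-05). HOXD11 fell by 32.7 points (SE 3.63, limma adjusted p = 0.000148). HOXA6 had 52.6% and 60.3% and HOXD11 29.3% and 36.1% in MII libraries. The tested genes not called were HOXA4, HOXC5, HOXD1 and HOXD3, all under 10% in the MII mean. The median difference over all 36 HOX genes was −30.0 points, against 0.0 over all coding genes. After each library's mean was subtracted, 3 HOX genes were called higher and 24 lower. With −log10 q of 3 or more 7 were called lower, and with no filter on low values 14.

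The mark came back between the morula and the blastocyst. In morulae 18 and 23 of the 36 HOX genes were at 0.0%, and the highest was HOXB13, a tail-end gene, with 15.4% and 10.9%. In blastocysts HOXB13 was covered to 99.9% and 83.2%, HOXC12, also a gene of the tail end, to 79.3% and 66.2% and HOXA7 to 65.0% and 71.3%. HOXB2 and HOXD8 remained at 0.0% in both libraries. Both blastocyst libraries lay above both morula libraries in 32 of 36 HOX genes (30.9% of all genes) and below in 0 (0.0719%). The limma test called 30 HOX genes higher (55.6% of tested genes) and 0 lower (0.0285%), and 30 had an unadjusted p under 0.05.

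HOXB13 rose by 78.4 points (SE 5.71, limma adjusted p = 1.97e-05), HOXC12 by 72.7 points (SE 5.7, limma adjusted p = 2.71e-05) and HOXA7 by 63.6 points (SE 3.24, limma adjusted p = 6.11e-06). HOXD11, with 5.75% and 0.0% in morula and 42.9% and 33.5% in blastocyst libraries, rose by 35.3 points (SE 3.63, limma adjusted p = 9.2e-05). All 11 HOXA genes passed, as did the 7 tested HOXB genes, 6 of 8 tested HOXC genes and 6 of 7 tested HOXD genes. HOXC5, HOXC8 and HOXD13 were tested and did not pass. With each library's mean subtracted, the differences of HOXA4 (−0.53), HOXC4 (−4.41) and HOXD1 (−3.6 points) changed sign. The widest H3K27me3 peaks over the clusters in blastocysts were 22.4 kb over HOXB13 (replicate 1) and 20.4 kb over HOXB8 and on toward HOXB13 (replicate 2). In MII libraries they were 9.04 and 8.25 kb, both between the annotated HOXB3 and HOXB5. The annotation names no HOXB4 or HOXB9, so a HOX gene that it lacks under these peaks would not be seen. The median difference over all 36 HOX genes was 29.4 points, against 0.547 over all coding genes. With −log10 q of 3 or more 6 HOX genes were called higher, and with no filter on low values 16.

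EVX1, a homeobox gene 42.1 kb from HOXA13 that descends from the same ancestral cluster, carried more of the mark in morulae than any HOX gene. It was covered to 70.3% and 69.6% in MII libraries, 0.0% at the 2-cell, 4-cell and 8-cell stages, 90.9% and 85.2% in morulae and 100% and 100% in blastocysts. HOXA13, the nearest member, had 7.6% and 6.29% in morulae. EVX2, 9.0 kb from HOXD13, had 15.4% and 26.6% in morulae and 42.8% and 39.7% in blastocysts, while HOXD13 had 4.88% and 0.0%, then 11.3% and 19%. In H3K4me3, EVX1 had 2.85% and 5.66% in morulae, where HOXA13 had 23.2% and 24.1%. The difference between EVX1 and the HOX genes was not tested. Among the 3 nearest coding genes on either side of each cluster, which hold HIBADH, SKAP1, CBX5 and HNRNPA1, these 2 EVX genes were the ones with over 10% H3K27me3 coverage in both morula libraries.

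The blastocyst pattern was not that of the MII oocyte. The 2 groups are also the outer ends of the comparisons with 2-cell embryos and with morulae and share those libraries with them. Across the 36 genes the group means of MII and blastocyst had a Spearman rho of 0.552 and a Pearson r of 0.519, as a description over genes that share windows. Between replicates, rho was 0.916 in MII and 0.926 in blastocysts. Base by base, 43309 bp of the clusters lay under peaks in both libraries of both groups, 46.2% of the MII length and 34.9% of the blastocyst length. The share of the MII length was 60.9% in HOXA, 44.3% in HOXB, 34.0% in HOXC and 40.1% in HOXD.

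**Figure D4:**
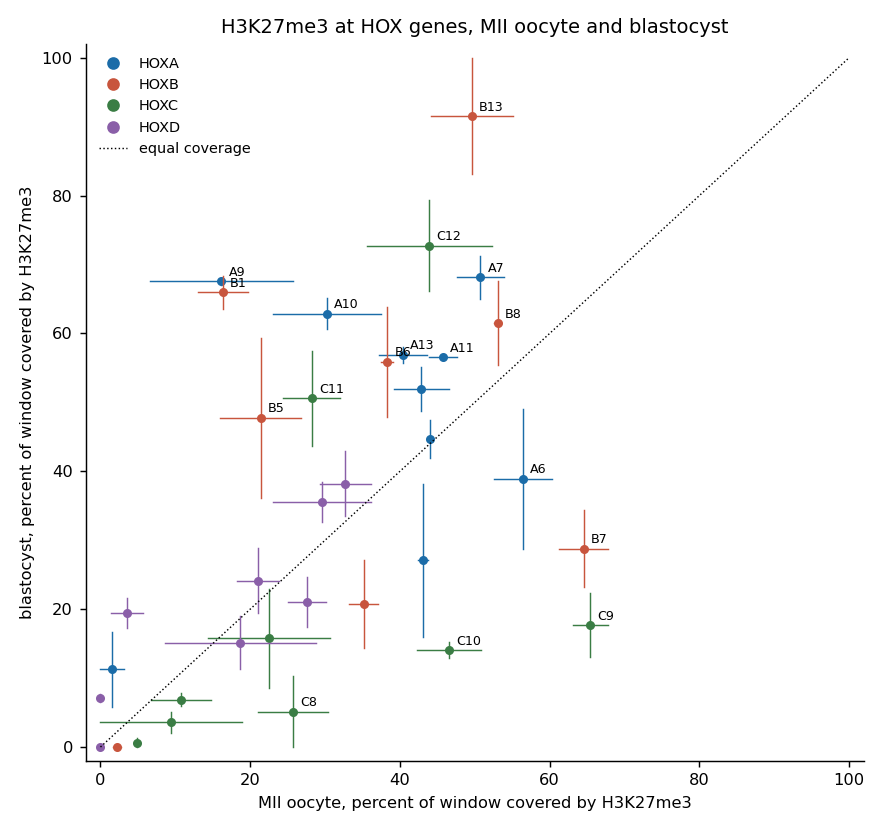
H3K27me3 coverage of each of 35 HOX gene windows in MII oocytes (x axis) and blastocysts (y axis), in percent. Points are means of 2 libraries, bars join the 2 libraries, colours give the cluster, and the dotted line marks equal coverage. HOXA9, HOXB1 and HOXB13 lie far above the line, and HOXC8, HOXC9, HOXC10 and HOXB7 far below it.

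Limma with Benjamini-Hochberg adjustment called 16 of the 33 tested HOX genes higher in blastocysts than in MII oocytes (43.9% of tested genes) and 7 lower (21.6%). Both counts were near the shares over all tested genes, so they do not set HOX genes apart. The higher genes were 8 in HOXA, 4 in HOXB, 2 in HOXC and 2 in HOXD. HOXA9 went from 25.7% and 6.59% to 68.1% and 67.1%, a rise of 51.4 points (SE 5.12, limma adjusted p = 5.06e-05). HOXB1 went from 19.7% and 13% to 63.5% and 68.4%, a rise of 49.6 points (SE 3.02, limma adjusted p = 4.36e-06). HOXB1 was also the HOX gene called lower in H3K4me3 between these groups, a call lost without MII replicate 2 or blastocyst replicate 2. HOXC12 rose by 28.8 points (SE 5.7, limma adjusted p = 0.00239), from 52.3% and 35.6% to 79.3% and 66.2%. HOXD3 rose by 15.9 points (SE 1.87, limma adjusted p = 0.00013), from 5.64% and 1.43% to 17.2% and 21.6%.

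The genes that fell were HOXA5, a gene of the lung and airway, and HOXA6, HOXB3 and HOXB7, and HOXC8, HOXC9 and HOXC10, which follow one another in HOXC. HOXC9 fell by 47.8 points (SE 3.12, limma adjusted p = 6.2e-06), to 13% and 22.3%. HOXB7 fell by 35.8 points (SE 3.73, limma adjusted p = 6.59e-05), to 34.4% and 23.2%, and HOXA6 by 17.6 points (SE 5.79, limma adjusted p = 0.0271), to 28.7% and 49.1%. For these 3 genes no blastocyst library reached the lower MII library. The fit shared 1 spread over all 6 groups, and HOXA6 was at 0.0% in every 2-cell and 4-cell library. Its SD was 5.41 in MII and 14.5 in blastocysts, so its SE of 5.79 may be too small. Empty groups lower the shared spread, so other SEs and p-values of this mark may also be too small. No HOXD gene was called lower. Over all 36 genes both blastocyst libraries lay above both MII libraries in 17 (23.6% of all genes) and below in 10 (10.6%). The median difference over all 36 HOX genes was 5.72 points, against 0.0 over all coding genes. In a fit of these 2 groups alone, 6 were called higher and 3 lower, with −log10 q of 3 or more 4 were called higher and called genes such as HOXA2 and HOXC11 changed sign, and with no filter 2 were called higher and 4 lower.

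Both marks lay over the same bases in part of the clusters. Counting bases under peaks in both libraries of a group, H3K4me3 held 13% of the 4 clusters in MII oocytes, H3K27me3 17.8% and both together 6.03%. In blastocysts the values were 24.0%, 23.6% and 7.07%. HOXA had the largest share of its length under both marks, with 12.5% in MII and 18% in blastocysts, and HOXD the smallest, with 2.48% and 2.2%. In blastocysts, 48.4% of the H3K27me3 length in HOXA also had H3K4me3, against 17.9% in HOXB, 24.6% in HOXC and 22.0% in HOXD. H3K4me3 held 34.2% of the whole HOXA cluster, 16.1% of HOXB, 20.4% of HOXC and 30.2% of HOXD. The overlap was thus above that share in HOXA, near it in HOXB and HOXC and below it in HOXD. Whether the marks overlapped more than their lengths alone would give was not tested. At the 2-cell, 4-cell and 8-cell stages no base of the clusters had H3K27me3 in both libraries, while H3K4me3 held 31.3%, 18.8% and 13.5%. In morulae H3K27me3 held 0.347% and H3K4me3 28.4%. The libraries of the 2 marks come from different embryos, so these overlaps do not show both marks on 1 nucleosome or in 1 cell.

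**Figure D5:**
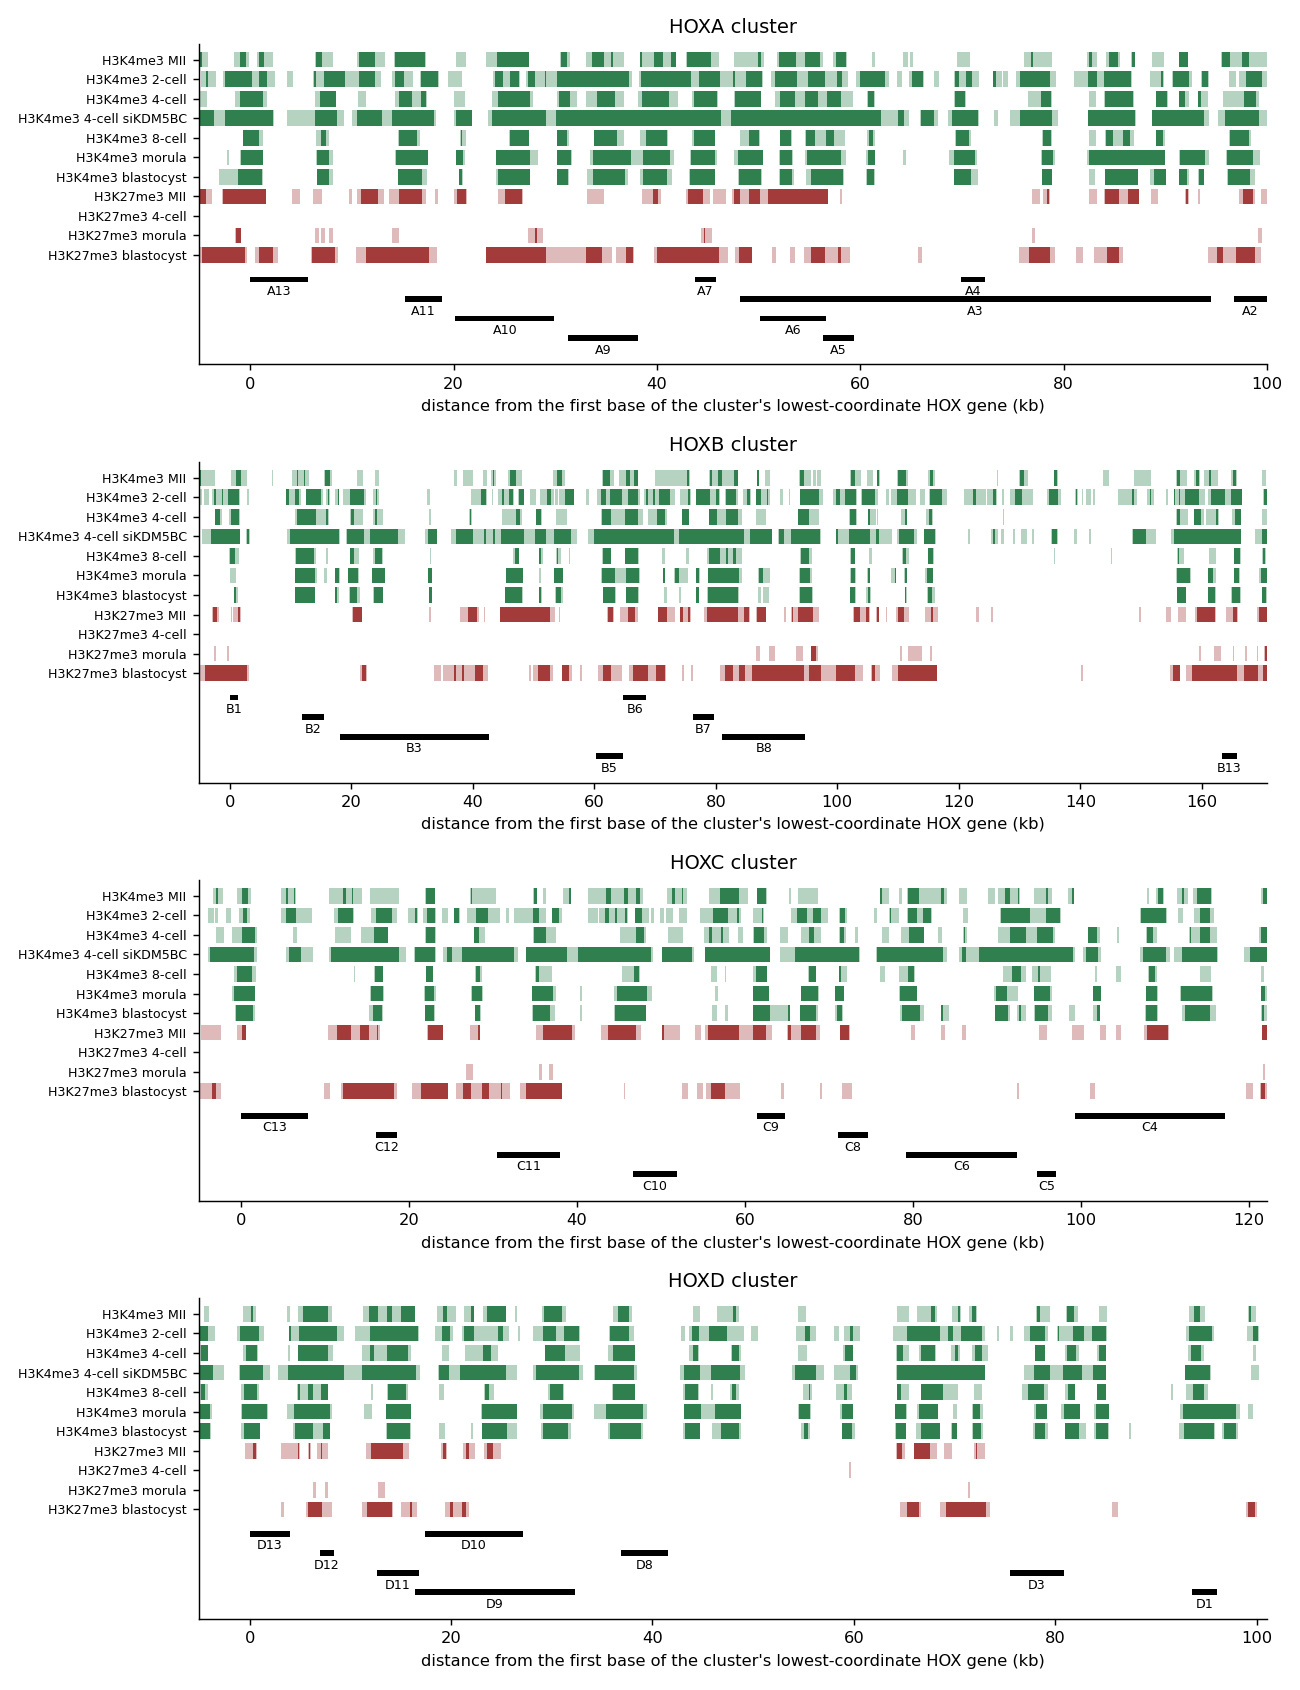
Peaks along the 4 HOX clusters in 11 groups, H3K4me3 in green and H3K27me3 in red. Dark bars are bases under peaks in both libraries, pale bars in 1 library, and black bars are 35 of the HOX genes, named without the prefix. The x axis is the distance in kb from the lowest-coordinate HOX gene, and the HOXA panel ends at HOXA2. In siKDM5BC embryos the green bars run together, the H3K27me3 rows of 4-cell embryos are empty but for 1 pale bar in HOXD, and in blastocysts the red bars lie over HOXC10 to HOXC4 only thinly.

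Across the 36 genes, H3K4me3 and H3K27me3 group means had a Spearman rho of 0.582 in MII oocytes and 0.0324 in blastocysts, again as a description over genes with shared windows. HOXB1, with 65.9% H3K27me3 and 3.78% H3K4me3 in blastocysts, and HOXD8, with 0.0% and 35.6%, were at opposite ends. HOXA7 was high for both, with 68.2% and 60.1%.

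Grouped into 3 classes by paralogue number, the posterior genes had the highest mean H3K27me3 coverage in MII oocytes and in blastocysts. The 8 anterior genes (paralogues 1 to 3) had 22.3% ± 2.02 (SD, n = 2) in MII oocytes, the 13 central genes (4 to 8) 29.2% ± 2.0 and the 15 posterior genes (9 to 13) 34.6% ± 6.33. In blastocysts the means were 33.8% ± 4.99, 27.4% ± 4.89 and 42.7% ± 0.229. The posterior class lay above both others in both blastocyst libraries, while in MII its lower library (30.1%) lay below the higher central one (30.6%). Single numbers did not follow that order. The 2 genes of paralogue 7 had 57.6% and 57.7% in MII, above every posterior number, and 49.7% and 47.3% in blastocysts. Posterior genes also differed among themselves, since HOXC10 had 12.9% and 15.2% and HOXD13 11.3% and 19% in blastocysts. For H3K4me3 the order of the classes differed between stages. In MII oocytes coverage also rose from anterior to posterior in both libraries, with means of 27.2% ± 15.2, 30.9% ± 13.1 and 35.9% ± 10.2. The GV and 2-cell means had the same order. At the 1-cell, 4-cell, 8-cell and morula stages the central mean was the highest. In siKDM5BC embryos the means were 64.7% ± 1.41, 82.9% ± 2.04 and 77.8% ± 1.14 from anterior to posterior, and in blastocysts 34.8% ± 0.913, 37.5% ± 0.588 and 30.6% ± 0.555. These classes hold different clusters in different numbers and share windows, and no test was run over them.

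Genes that act with HOX genes were described from 4 lists, with the same limma test. The ParaHox and related homeobox genes are relatives of the HOX genes. Of 11, 8 were called higher in siKDM5BC embryos (41.2% of all tested genes), with PDX1, the pancreas regulator (35.4% to 87.3%), EVX1 (30.3% to 93.3%) and CDX2, a regulator of trophectoderm and of HOX genes (31.1% to 80.4%), among them. In H3K27me3, 6 of 11 fell from MII to 2-cell (32.8% of all tested genes) and 10 of 11 rose from morula to blastocyst (55.6%). As for HOX genes, the filter on low values partly fixed the counts of these 2 comparisons, here and in the other lists. From MII to blastocyst 8 rose (43.9%) and 2 fell (21.6%). The same shares over all tested genes apply to the H3K27me3 counts of the lists that follow. CDX2 was 1 of the 2, going from 40.6% and 47.7% in MII to 0.0% and 15.6% in blastocysts, a fall of 36.4 points (SE 4.54, limma adjusted p = 0.000183). From 2-cell to 4-cell 1 of 11 fell in H3K4me3 (13.4% of all tested genes), and from MII to blastocyst 2 did (4.92%).

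The TALE cofactors, PBX, MEIS and PKNOX proteins that bind DNA beside HOX proteins, were described next. Of 9, 4 were called higher in siKDM5BC embryos (41.2% of all tested genes), led by MEIS1 (21.7% to 49.7%). In H3K4me3, 1 rose from MII to blastocyst (PBX4, against 38.7% of tested genes). From 2-cell to 4-cell 0 passed, against 13.4% of tested genes lower and 0.177% higher. Of their 4 tested in H3K27me3, 2 fell from MII to 2-cell and 3 rose from morula to blastocyst, and from MII to blastocyst 1 rose and 1 fell. Of 20 trithorax and Polycomb genes, which encode the enzymes and readers of the marks, 7 were called higher in siKDM5BC embryos, a share below the 41.2% of all tested genes. From MII to blastocyst 6 rose in H3K4me3, also a share below that of all tested genes (38.7%), with JARID2 (10.6% to 49.1%) and EED (1.29% to 32.2%), parts of Polycomb complex PRC2, among them. Of 9 tested in H3K27me3, 2 fell from MII to 2-cell, 7 rose from morula to blastocyst and 6 rose from MII to blastocyst. In H3K4me3, 1 of 20 fell from 2-cell to 4-cell (13.4% of all tested genes).

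Of 8 tested retinoid genes, which make or sense the retinoic acid that switches on HOX genes, 3 were called higher in siKDM5BC embryos, a share near the 41.2% of all tested genes. The receptor genes RXRA (20.2% to 100%) and RARA (16.5% to 81.0%) led them. From MII to blastocyst 3 rose (38.7% of all tested genes) and 1 fell in H3K4me3 (4.92%), and from 2-cell to 4-cell 2 fell (13.4%). With 8 genes, these counts do not set the list apart. In H3K27me3, with 4 tested, 3 fell from MII to 2-cell and 2 rose from morula to blastocyst, and 1 rose and 2 fell from MII to blastocyst. RXRA had 88% in MII and 5.18% in blastocysts as group means, a fall of 82.9 points (SE 2.91, limma adjusted p = 6.46e-07), while CYP26A1, which breaks retinoic acid down, rose from 1.01% to 23.8% (22.8 points, SE 1.56, limma adjusted p = 7.13e-06).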

How the data were processed

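Each library had 1 deposited list of broad peaks with 0-based start and end positions. Per the submitters' processing notes, Bowtie2 2.4.1, MACS2 and susScr11 were used. The sources used here do not give the MACS2 version, input control or threshold. The authors' signal column is a fold enrichment ratio, followed by the authors' −log10 p and −log10 q. Lists were made per library. Overlapping peaks were merged, and the percent of each window covered was computed with Python 3.11.15 and numpy 2.4.6. Gene positions and symbols came from the RefSeq table of Sscrofa11.1, which gives no strand, so both ends were treated alike. Windows with a mean of 1 percent or more were tested with limma 3.58.1 (R 4.3.3), with trend and robust moderation, over all groups of a mark (18 or 12 libraries), Benjamini-Hochberg adjustment over all tested genes and a threshold of 0.05. Simulated data with 100 genes shifted by 30 points gave 65% recovered for the siKDM5BC comparison (17712 genes tested), and 12% at 15 points. For H3K27me3 from MII to 2-cell (7941 genes tested) it was 87% and 45%. False calls numbered 3 for the siKDM5BC comparison and 11 for the H3K27me3 one. Each gene was drawn independently around 1 mean over all groups, so the simulation held no empty stages and no shared windows. Its recovery therefore does not give the power of the tests in these data. Depth is unknown, so 2 libraries per group set the precision. All groups of a mark shared 1 estimate of the spread. For H3K27me3 that took in groups whose HOX windows were at 0.0% in both libraries, which lowers the SEs and p-values of HOX genes.

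The HOX genes, gene lists and tests were chosen with earlier results of these data known. Members, named by rule, were given in full where they were the called gene of a cluster with the largest difference in a direction, others where they lay at an extreme seen in the data. Alternatives were other peak minimums, windows, scales, filters and centring, a replicate block, leaving out libraries, and, added after seeing the data, a fit of the 2 groups alone. Sequences and start-site windows were not used here. The values of 1 member are not reported here, while counts and means over the members include it.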

Additional observations from a re-analysis of the deposited data

How the results depend on the processing

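Leaving out 1 library of the groups compared gave these ranges of called HOX genes. H3K4me3 from MII to blastocyst had 1 to 1 higher and 0 to 2 lower, 2-cell to 4-cell 0 to 4 lower, siKDM5BC 8 to 32 higher and the 8-stage test 6 to 25. H3K27me3 had 25 to 29 lower from MII to 2-cell, 27 to 28 higher from morula to blastocyst, 14 to 17 higher and 7 to 8 lower from MII to blastocyst, and 29 to 32 across 6 stages. A fold of 3.5 or more gave 8 higher and 0 lower (H3K4me3, MII to blastocyst) and 0 lower (2-cell to 4-cell). With −log10 q of 3 or more, H3K4me3 had 33 higher and 0 lower from MII to blastocyst, 18 higher and 0 lower from 2-cell to 4-cell, and 34 across stages, and H3K27me3 had 7 lower from MII to 2-cell, 6 higher from morula to blastocyst, 4 higher from MII to blastocyst and 10 across stages. Windows of 2.5 kb gave 2 higher from MII to blastocyst and 1 lower from 2-cell to 4-cell in H3K4me3. The log2 scale, with 500 bp added, gave 2 higher, 1 lower and 20 higher in siKDM5BC. Subtracting each library's mean gave 6 lower from MII to blastocyst, 1 higher and 1 lower from 2-cell to 4-cell and 19 across stages in H3K4me3, and 3 higher from MII to 2-cell in H3K27me3. No filter gave, in H3K27me3, 14 lower from MII to 2-cell, 16 higher from morula to blastocyst, 2 higher and 4 lower from MII to blastocyst, and 20 across stages. Fits of the 2 groups alone gave 2 higher and 2 lower (H3K4me3, MII to blastocyst), 1 lower (2-cell to 4-cell), and 6 higher and 3 lower (H3K27me3, MII to blastocyst). Counts under alternative settings, here and above, are given without the share of all tested genes called under the same setting. They describe only how stable the HOX counts were. The cause of these shifts was not tested.

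Differences called and reported here that changed sign with −log10 q of 3 or more were, in points, HOXD3 23.12 and HOXA4 10.04 (H3K4me3, 2-cell to 4-cell), and HOXC11 −9.14, HOXB5 −6.9, HOXB6 −7.23, HOXA13 −4.82, HOXA7 −7.18 and HOXA2 −17.19 (H3K27me3, MII to blastocyst). With library means subtracted, HOXC4 (−4.41), HOXD1 (−3.6) and HOXA4 (−0.53) did so for H3K27me3 from morula to blastocyst.

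Equal replicate numbers showed no general pairing of libraries. Over 36 pairs of H3K4me3 groups the correlation of their deviations ran from −0.263 to 0.353, with a median of 0.00249 and 4 pairs over 0.1. Over 15 pairs of H3K27me3 groups it ran from −0.0733 to 0.0969. A replicate block gave 32 HOX genes higher in siKDM5BC, 1 higher and 1 lower from MII to blastocyst, 2 lower from 2-cell to 4-cell and 10 across stages in H3K4me3. In H3K27me3 it gave 28 lower, 29 higher, 15 higher and 8 lower, and 31 across stages, in the order used above. The start-site window was not run, since the annotation used here gives no strand.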
